A study of Mus musculus with 6 samples.

Results

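The Ms4a family was described in bone marrow of mice with disease driven by HoxA9 and Meis1, as 10 genes (Ms4a1, Ms4a2, Ms4a3, Ms4a4b, Ms4a4c, Ms4a6b, Ms4a6c, Ms4a6d, Ms4a7 and Ms4a8a) of 19938 measured with a single gene symbol per probe set. Each of the 10 genes was read by 1 probe set, so that the rule of taking the brightest one had no choice to make. The genes were chosen by family, with the difference between the groups in Ms4a8a already known from these arrays, and the probe sets were selected on the mean over the 6 arrays; the values in the comparison below are therefore a description. The array measured 9 further Ms4a genes, which are set beside the 10. In the HoxA9AA/Meis1 group (3 mice), lethally irradiated CD45.1+ recipients carried CD45.2+ donor LSK cells, an immature fraction of blood-forming cells, transduced with Meis1 and with the altered HoxA9AA, which was linked to GFP. In the HoxA9wt/Meis1 group (3 mice) the same kind of recipient carried donor cells with Meis1 and wild-type HoxA9 linked to GFP. The sources used here give no strain, age or sex, and do not say what the AA change is. RNA of bone marrow cells harvested at disease onset went onto Affymetrix whole-transcript arrays, 1 per mouse. The labels name no sort for donor or GFP-positive cells, so recipient cells may be in each sample.

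MS4A genes encode small surface proteins that cross the membrane 4 times, and they lie next to each other in a cluster on mouse chromosome 19. Family members are used as signatures of blood lineages. Ms4a1 encodes CD20 of B cells, Ms4a2 the beta chain of the high-affinity IgE receptor of mast cells and basophils, and Ms4a3 a cell cycle regulator of granulocyte and monocyte progenitors. Others, such as Ms4a4a, Ms4a6c, Ms4a6d and Ms4a7, are known from monocytes and macrophages, and Ms4a4b from T cells.

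Promoter sequences are shown for both pairs of genes with near-copy promoters, for the gene with the largest difference among the 10 (Ms4a8a) and for the gene of myeloid progenitors (Ms4a3). These genes are described closely below. Each run covers 250 bases before to 50 bases after the annotated gene start, 5′ to 3′ on the gene's strand, from RefSeq on GRCm38.p6. Capitals mark matches, on either strand, to GAGGAA, a form of the core bound by the myeloid ETS factor PU.1, and to TTGCNNAA, a form of the C/EBP core.
Ms4a8a (chr19:11081054-11081353, minus strand): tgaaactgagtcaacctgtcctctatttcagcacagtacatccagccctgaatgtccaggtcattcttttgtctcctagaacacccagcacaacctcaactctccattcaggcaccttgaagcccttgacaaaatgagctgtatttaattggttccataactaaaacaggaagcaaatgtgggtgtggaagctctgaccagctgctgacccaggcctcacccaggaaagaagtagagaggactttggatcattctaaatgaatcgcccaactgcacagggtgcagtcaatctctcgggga
Ms4a4c (chr19:11407411-11407710, plus strand): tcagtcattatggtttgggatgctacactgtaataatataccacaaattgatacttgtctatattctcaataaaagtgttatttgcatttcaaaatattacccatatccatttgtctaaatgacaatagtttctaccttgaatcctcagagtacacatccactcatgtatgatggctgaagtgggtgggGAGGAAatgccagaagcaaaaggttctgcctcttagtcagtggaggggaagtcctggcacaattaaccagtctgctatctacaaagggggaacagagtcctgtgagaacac
Ms4a4b (chr19:11443308-11443607, plus strand): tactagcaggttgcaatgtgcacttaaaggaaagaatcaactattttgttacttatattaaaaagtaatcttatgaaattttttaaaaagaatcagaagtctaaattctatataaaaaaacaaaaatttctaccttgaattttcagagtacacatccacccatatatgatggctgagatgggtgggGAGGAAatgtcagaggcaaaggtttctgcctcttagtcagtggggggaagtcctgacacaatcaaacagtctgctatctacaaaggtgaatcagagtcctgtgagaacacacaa
Ms4a6c (chr19:11469118-11469417, plus strand): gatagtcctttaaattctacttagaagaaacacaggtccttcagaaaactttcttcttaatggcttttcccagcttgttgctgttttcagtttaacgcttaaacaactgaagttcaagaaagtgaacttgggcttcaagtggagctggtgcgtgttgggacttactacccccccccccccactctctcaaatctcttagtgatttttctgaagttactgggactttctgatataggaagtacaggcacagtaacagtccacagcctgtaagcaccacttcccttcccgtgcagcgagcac
Ms4a6b (chr19:11518309-11518608, plus strand): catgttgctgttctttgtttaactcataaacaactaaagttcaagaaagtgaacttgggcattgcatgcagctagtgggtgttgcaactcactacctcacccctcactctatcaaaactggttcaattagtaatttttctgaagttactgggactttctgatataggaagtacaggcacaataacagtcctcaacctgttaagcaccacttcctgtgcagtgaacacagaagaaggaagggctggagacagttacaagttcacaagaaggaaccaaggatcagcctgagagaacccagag
Ms4a3 (chr19:11640802-11641101, minus strand): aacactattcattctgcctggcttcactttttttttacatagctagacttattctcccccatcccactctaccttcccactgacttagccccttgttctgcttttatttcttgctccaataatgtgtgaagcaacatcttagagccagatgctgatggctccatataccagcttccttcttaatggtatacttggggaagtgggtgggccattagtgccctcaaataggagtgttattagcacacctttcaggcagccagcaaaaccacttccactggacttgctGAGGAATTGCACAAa

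The Ms4a4c and Ms4a4b promoters were near copies, identical at 234 of 279 aligned bases (83.9%, gaps not counted), and both held GAGGAA at like places in the window. The Ms4a6c and Ms4a6b promoters were identical at 194 of 218 aligned bases (89.0%). Percent identity alone separates the pairs poorly here, since some other pairs aligned over few bases. Ms4a4b and Ms4a3, for example, reached 90.5% over only 21 aligned bases. The alignment score, which counts matches less mismatches and gaps, was 147.0 for Ms4a4c and Ms4a4b and 147.5 for Ms4a6c and Ms4a6b. The next highest score among the promoters compared was 20.5, for Ms4a6c and Ms4a3. In Ms4a3 the last bases of the window held GAGGAA and a C/EBP match side by side. The RefSeq table used here held promoters for 8 of the 10 genes (all but Ms4a6d and Ms4a1), in 9 windows, since Ms4a7 has 2. GAGGAA was in 4 of the 9 windows, 1 of them of Ms4a7 (28.3% of all 32851 windows held it), and TTGCNNAA in 1 (10.8%). The MEIS core TGACAG was in 0 of 9 (19.2% of all windows), and TGATNNAT, a form of the joint HOX and PBX site, in 2 of 9 (8.8%), 1 of them the other window of Ms4a7. Motifs were searched on both strands and a match is only a string of letters. Alike promoters do not show that the transcripts are alike, and transcripts were not compared here. If they are alike, probes for Ms4a4b and Ms4a4c, or for Ms4a6b and Ms4a6c, may take up RNA of the other gene. Probe sequences were not analysed here.

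Expression is given as log2 values, so that 1 unit stands for a factor of 2. As a measure of background, the 95th percentile of 1027 olfactory receptor genes lay at 6.52 to 6.72 on the 6 arrays. Of the 10 genes, 5 lay above that level on all 6 arrays (Ms4a3, Ms4a4c, Ms4a6b, Ms4a6c and Ms4a8a) and Ms4a6d on 5. Ms4a1 and Ms4a4b lay below it on every array, Ms4a7 was above it on 1 array and Ms4a2 on 2. The arrays themselves were not alike. Across genes, HoxA9AA/Meis1 replicate 2 correlated with the 3 HoxA9wt/Meis1 arrays at r = 0.989 to 0.991, replicate 3 at 0.968 to 0.970 and replicate 1 at 0.958 to 0.966, as a description with no test. The leukocyte gene Ptprc measured 11.14 to 11.88 in HoxA9AA/Meis1 marrow and 11.79 to 11.99 in HoxA9wt/Meis1 marrow. RNA of Hoxa9 and Meis1 was detected in all mice. Whether their probe sets read transduced transcripts, endogenous ones or both was not checked. Hoxa9 measured 8.49 to 9.07 in HoxA9AA/Meis1 marrow and 7.89 to 8.93 in HoxA9wt/Meis1 marrow, and Meis1 8.50 to 10.58 and 9.26 to 10.21.

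The comparison of the groups asked how the family differs in diseased marrow with the altered HoxA9. Ms4a8a, Ms4a6d, Ms4a4c, Ms4a6c and Ms4a4b were lower in HoxA9AA/Meis1 replicates 1 and 3 than in every HoxA9wt/Meis1 mouse. Replicate 2 stood closer to the HoxA9wt/Meis1 mice, though below all of them for Ms4a8a and Ms4a4b. Ms4a1 was also lower in replicates 1 and 3, at 5.18 and 5.05 against 5.21 to 5.25, but highest in replicate 2. Ms4a1 and Ms4a4b lay below the background percentile on every array. Ms4a8a, Ms4a6d and Ms4a4c had the largest differences of the 10 genes, with group means apart by −2.59, −2.06 and −1.77 (log2, HoxA9AA/Meis1 minus HoxA9wt/Meis1). Ms4a3, Ms4a2, Ms4a7 and Ms4a1 had slightly higher means in HoxA9AA/Meis1 marrow, by 0.27, 0.09, 0.26 and 0.24. No member passed the test: 0 of 10 had an adjusted p under 0.05 with limma, against 0% of all genes (0 of 19938). At an unadjusted p under 0.05 (limma) there were 2 members, Ms4a8a and Ms4a4b, both lower. Of all genes, 2.59% were lower at that level (6.74% in both directions). The family was chosen with the difference in Ms4a8a known, so this count is no evidence about the family as a whole. The mean was lower for 6 of 10 members and for 46.4% of all genes, and the median difference was −0.72 over the members and 0.01 over all genes. In whole marrow, fewer cells of a type and less RNA per cell cannot be told apart.

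**Figure D1:**
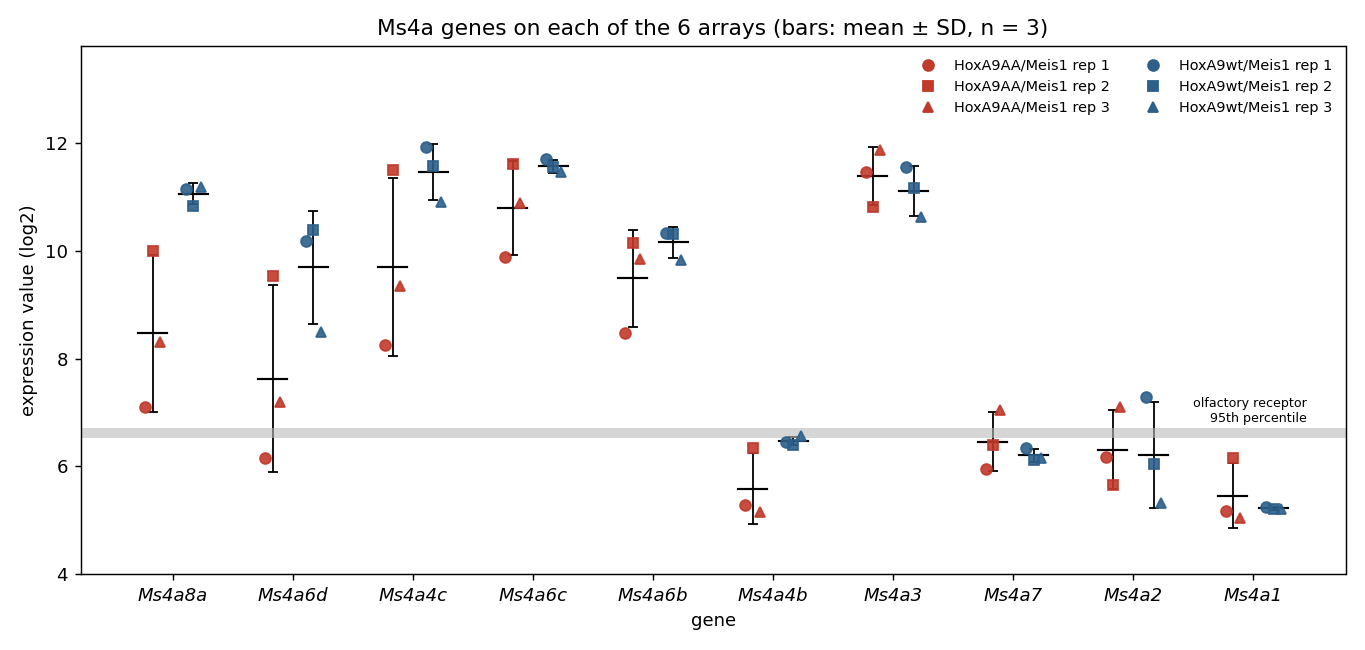
Expression values (log2, vertical axis) of the 10 Ms4a genes (horizontal axis) per array. A symbol is 1 mouse, black bars give the mean ± SD of a group (n = 3), and the grey band the 95th percentile of olfactory receptor genes, 6.52 to 6.72. HoxA9AA/Meis1 replicate 2 lies near the HoxA9wt/Meis1 mice for Ms4a4c (11.49 against a mean of 11.47) and Ms4a6c (11.61 against 11.57), and below them for Ms4a8a (9.99 against 11.06).

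Ms4a8a, known in mice from alternatively activated macrophages and from gut epithelium, had the largest difference of the 10 genes. It measured 7.10, 9.99 and 8.31 in HoxA9AA/Meis1 replicates 1, 2 and 3, against 11.15, 10.83 and 11.19 in HoxA9wt/Meis1 replicates 1, 2 and 3. All 3 HoxA9AA/Meis1 mice lay below all 3 HoxA9wt/Meis1 mice, and the HoxA9wt/Meis1 values lay within 0.36 of each other while the HoxA9AA/Meis1 values spanned 2.89. Set against the HoxA9wt/Meis1 mean, Ms4a8a was 15.5-fold lower in replicate 1, 2.10-fold lower in replicate 2 and 6.71-fold lower in replicate 3. The group means were 8.47 ± 1.45 and 11.06 ± 0.20 (SD, n = 3 each, HoxA9AA/Meis1 and HoxA9wt/Meis1), a difference of −2.59 ± 0.67 (SE; limma, adjusted p = 0.731).

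Ms4a4b, a T cell protein that modulates activation, was the other member whose groups did not overlap. It measured 5.28, 6.34 and 5.15 in HoxA9AA/Meis1 mice, against 6.46, 6.40 and 6.56 in HoxA9wt/Meis1 mice. The nearest mice of the groups were 6.34 and 6.40, so that replicate 2 hardly stood apart from the HoxA9wt/Meis1 mice, and all 6 values lay below the background percentile. Groups without overlap were thus seen for 2 of 10 members, both lower, and for 11.4% of all genes (4.80% lower). Ms4a8a, whose difference was known when the family was chosen, is in this count and in those without overlap below. The difference of Ms4a4b was −0.88 ± 0.31 (SE; limma, adjusted p = 0.731). Without HoxA9AA/Meis1 replicate 2 it was −1.26 and passed (limma, adjusted p = 0.0424), as 1 of the 10 members, where 0.241% of all genes passed. The array left out is the one that correlated best with the HoxA9wt/Meis1 arrays, which makes calls easier. Members without overlap numbered 6 without that array (28.3% of all genes) and 5 without HoxA9wt/Meis1 replicate 3 (16.9%). The 6 were Ms4a1, Ms4a4b, Ms4a4c, Ms4a6c, Ms4a6d and Ms4a8a, and the 5 were Ms4a4b, Ms4a4c, Ms4a6b, Ms4a6d and Ms4a8a. Of these, Ms4a1 and Ms4a4b were below the background percentile on every array. On T and NK cell genes the groups overlapped, with list means of 6.15 to 6.41 in HoxA9AA/Meis1 marrow and 6.24 to 6.47 in HoxA9wt/Meis1 marrow over 12 measured genes. Of these 12 genes, 6 had higher and 6 lower means, and Cd3d, Cd5, Klrb1c and Ncr1 stayed at background on every array.

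Ms4a6d, known from mouse macrophages, and Ms4a4c, expressed in myeloid cells, were low in the same mice as Ms4a8a. Ms4a6d measured 6.16, 9.54 and 7.19 in HoxA9AA/Meis1 replicates 1, 2 and 3, against 10.19, 10.39 and 8.49 in HoxA9wt/Meis1 replicates 1, 2 and 3. The groups overlapped, because HoxA9wt/Meis1 replicate 3 lay below HoxA9AA/Meis1 replicate 2, and replicates 1 and 3 of HoxA9AA/Meis1 were the lowest values. Ms4a6d was 5.66-fold lower than the HoxA9wt/Meis1 mean in HoxA9AA/Meis1 replicate 3. Its difference was −2.06 ± 0.92 (SE; limma, adjusted p = 0.731), and replicate 1, at 6.16, was below the background percentile, which limits how low it can read. Ms4a4c measured 8.26, 11.49 and 9.34, against 11.92, 11.58 and 10.90 in HoxA9wt/Meis1 mice. It was 9.23-fold lower than the HoxA9wt/Meis1 mean in replicate 1 and 4.37-fold lower in replicate 3, with replicate 2 within the range of the HoxA9wt/Meis1 mice. Its difference was −1.77 ± 0.79 (SE; limma, adjusted p = 0.731). Without HoxA9AA/Meis1 replicate 1 the differences were −1.32 for Ms4a6d and −1.05 for Ms4a4c, and without HoxA9AA/Meis1 replicate 2 that of Ms4a4c was −2.67.

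Ms4a6c and Ms4a6b, whose near-copy promoters are printed above, were lowest in HoxA9AA/Meis1 replicate 1. Ms4a6c measured 9.88, 11.61 and 10.89 in HoxA9AA/Meis1 mice, against 11.70, 11.55 and 11.46 in HoxA9wt/Meis1 mice. Replicates 1 and 3 lay below every HoxA9wt/Meis1 value and replicate 2 among them. Ms4a6b measured 8.47, 10.15 and 9.84, against 10.33, 10.32 and 9.82, so that replicate 3 lay among the HoxA9wt/Meis1 mice and replicate 1 alone stood low. In replicate 1 the shift from the HoxA9wt/Meis1 mean was −1.69 for both genes, and in replicate 3 it was −0.68 for Ms4a6c and −0.32 for Ms4a6b. The group differences were −0.78 ± 0.40 for Ms4a6c and −0.67 ± 0.43 for Ms4a6b (SE; limma, adjusted p = 0.755 and 0.812). Without HoxA9AA/Meis1 replicate 1 Ms4a6c differed by −0.32 and Ms4a6b by −0.16, and without HoxA9AA/Meis1 replicate 2 they differed by −1.19 and −1.0. Array weights gave −0.50 for Ms4a6c and −0.34 for Ms4a6b.

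Taking the 10 genes by mouse, HoxA9AA/Meis1 replicate 1 had the lowest of the 6 values for 6 genes (Ms4a4c, Ms4a6b, Ms4a6c, Ms4a6d, Ms4a7 and Ms4a8a), and it lay below replicate 3 for 8 of the 10 genes. For Ms4a7 that lowest value lay within background. The share of all genes was not computed for these counts, and replicate 1 is the array that correlated least with the HoxA9wt/Meis1 arrays. Replicates 1 and 3 both lay at least 1 below the HoxA9wt/Meis1 mean for 4 of 10 members (Ms4a4b, Ms4a4c, Ms4a6d and Ms4a8a) and for 0.868% of all genes. That limit was set after the values were seen, and the family was chosen with Ms4a8a known. Ms4a4b lay below the background percentile on every array, and the share over all genes includes genes at background. In 3 of these 4 genes, all but Ms4a8a, replicate 2 was within 0.5 of the HoxA9wt/Meis1 mean. Among all genes 173 met that limit, and in 119 of these 173 replicate 2 was also within 0.5 of that mean (0.597% of all genes). The SD was larger among the HoxA9AA/Meis1 mice than among the HoxA9wt/Meis1 mice for 9 of 10 members (all but Ms4a2) and for 70.6% of all genes.

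Lists of monocyte and macrophage marker genes had lower averages in the same mice, with exceptions among their genes. Of 10 measured monocyte genes 9 had a lower mean, with a median difference of −0.50, and of 12 macrophage genes 10 had a lower mean, with a median difference of −0.28, where the median over all genes was 0.01. None of these genes passed the test (limma). Averaged over its genes, the monocyte list stood at −0.78, 0.02 and −0.71 relative to the HoxA9wt/Meis1 mean in HoxA9AA/Meis1 replicates 1, 2 and 3, against −0.23 to 0.12 in HoxA9wt/Meis1 mice. The macrophage list stood at −1.02, −0.21 and −0.72, against −0.36 to 0.50. The mean level of the monocyte genes was 8.99 to 9.79 in HoxA9AA/Meis1 and 9.54 to 9.89 in HoxA9wt/Meis1 marrow, that of the macrophage genes 7.56 to 8.37 and 8.22 to 9.07, and no gene of either list stayed at background on all arrays. The chemokine receptor gene Ccr2 of monocytes measured 9.97, 12.05 and 11.30, against 12.25, 12.06 and 12.10 in HoxA9wt/Meis1 mice. The scavenger receptor gene Msr1 measured 5.99, 9.03 and 5.68, against 10.64, 9.58 and 9.48. In HoxA9AA/Meis1 replicates 1 and 3 Msr1 lay below the background percentile, which limits how low it can read. Other genes of the lists went the opposite way or overlapped. The adhesion gene Vcam1 measured 11.35, 9.12 and 9.25, against 8.85, 8.48 and 8.56, so that all 3 HoxA9AA/Meis1 mice were higher (difference 1.28; limma, adjusted p = 0.731). The complement gene C1qc measured 6.91, 7.42 and 7.87, against 7.58, 6.97 and 7.35, highest in HoxA9AA/Meis1 replicate 3. F13a1, the clotting factor XIII gene, measured 11.22, 12.08 and 11.95, against 11.91, 12.20 and 12.05, low in replicate 1 and not in replicate 3. The lysosomal gene Cd68 measured 11.20 to 11.69, against 11.65 to 11.87, and the monocyte factor gene Irf8 8.40 to 9.36, against 8.50 to 8.86. The part of monocyte and macrophage content in the Ms4a values was not tested.

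**Figure D2:**
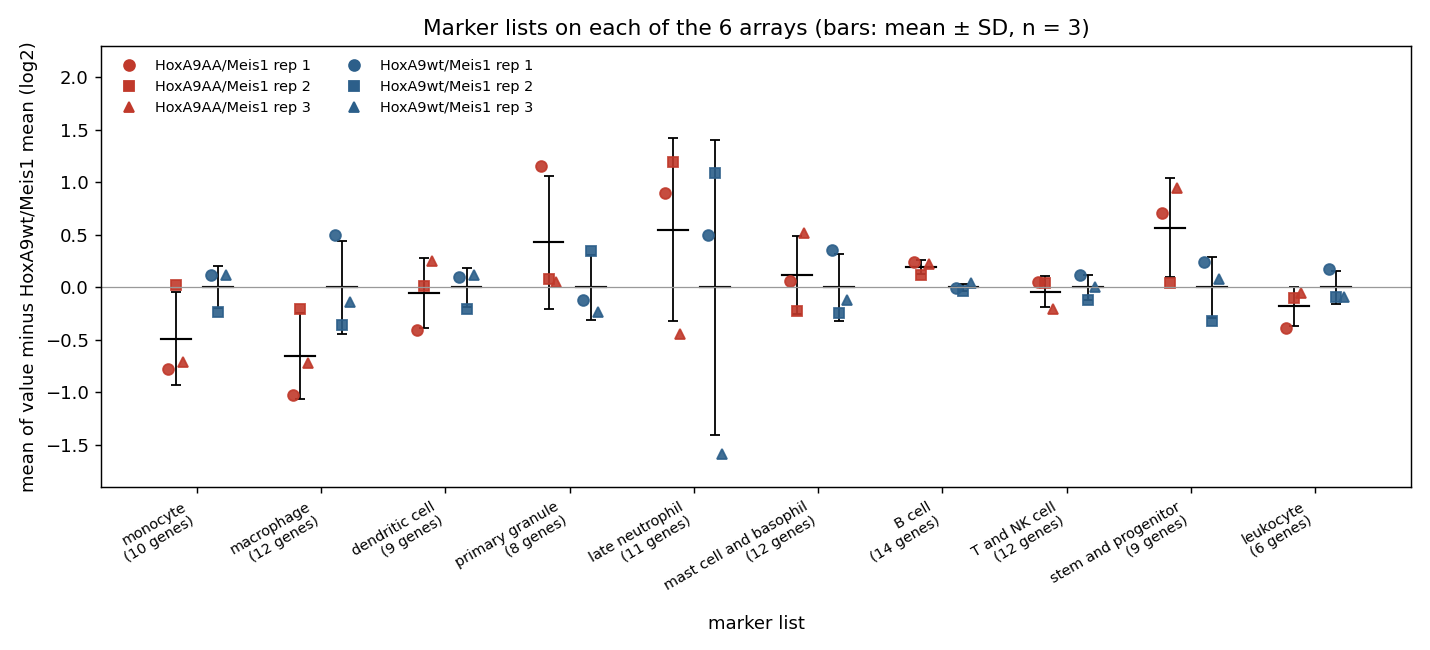
Mean over the measured genes of 10 marker lists (horizontal axis) of the log2 value minus the HoxA9wt/Meis1 mean (vertical axis) per array. A symbol is 1 mouse, and black bars give the mean ± SD of a group (n = 3). HoxA9AA/Meis1 replicates 1 and 3 are low on the monocyte list (−0.78 and −0.71) and the macrophage list (−1.02 and −0.72), and replicate 1 is high on the primary granule list, at 1.16.

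Ms4a3, the progenitor gene at the end of the cluster, was not low in those mice. It measured 11.47, 10.81 and 11.87 in HoxA9AA/Meis1 replicates 1, 2 and 3, against 11.55, 11.17 and 10.62 in HoxA9wt/Meis1 replicates 1, 2 and 3. The groups overlapped throughout, and the highest value was that of HoxA9AA/Meis1 replicate 3. The means were 11.38 ± 0.54 and 11.11 ± 0.47 (SD, n = 3 each, HoxA9AA/Meis1 and HoxA9wt/Meis1), a difference of 0.27 ± 0.33 (SE; limma, adjusted p = 0.920). That difference was 0.02 without HoxA9wt/Meis1 replicate 3, 0.03 without HoxA9AA/Meis1 replicate 3, 0.56 without HoxA9AA/Meis1 replicate 2 and 0.49 without HoxA9wt/Meis1 replicate 1. Primary granule genes, made at the progenitor and promyelocyte steps at which Ms4a3 is known, had higher means in 7 of 8 cases, and their list stood at 1.16, 0.08 and 0.05 in HoxA9AA/Meis1 replicates 1, 2 and 3, against −0.23 to 0.35. These cases include the regulator genes Cebpe and Gfi1, which do not encode granule proteins, with differences of 0.52 and 0.58. Ms4a3 did not follow the list by mouse, since the list was highest in replicate 1 (10.89 as the mean level, against 9.49 to 10.08 in HoxA9wt/Meis1 mice) and Ms4a3 in replicate 3. Stem and progenitor genes had higher means in 8 of 9 cases, with the list at 0.71, 0.04 and 0.95, against −0.32 to 0.24. That list includes the transduced genes Hoxa9 and Meis1, with differences of 0.40 and −0.08. Late neutrophil genes had higher means in 9 of 11 cases, with a median difference of 0.88, and their list stood at 0.90, 1.19 and −0.44, against 0.50, 1.09 and −1.59, the last being HoxA9wt/Meis1 replicate 3. One of them, the collagenase gene Mmp8, at 8.07, 11.44 and 6.07, against 11.70 to 12.49, was below every HoxA9wt/Meis1 value in all 3 HoxA9AA/Meis1 mice and lowest in replicates 1 and 3.

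The IgE receptor gene Ms4a2 differed between single mice of both groups and not between the groups. It measured 6.17, 5.65 and 7.10 in HoxA9AA/Meis1 mice, against 7.28, 6.04 and 5.33 in HoxA9wt/Meis1 mice, a difference of 0.09 ± 0.56 (SE; limma, adjusted p = 0.993). The high values were those of HoxA9wt/Meis1 replicate 1 and HoxA9AA/Meis1 replicate 3. The mast cell protease gene Cpa3 was high in the same mice, at 7.83, 6.45 and 11.08, against 10.47, 5.69 and 7.35. The basophil protease genes Mcpt8 and Prss34 were highest there too, with Mcpt8 at 9.27, 8.85 and 9.36, against 9.89, 8.54 and 8.75, and Prss34 at 6.15, 5.86 and 7.21, against 6.88, 6.25 and 6.27. Not all genes of the list followed these mice. Gata2, also on the list, measured 7.69, 7.06 and 7.55, against 7.26, 7.11 and 7.16, highest in HoxA9AA/Meis1 replicate 1. Hdc, the histamine enzyme gene, measured 7.53, 6.84 and 8.67, against 7.20, 6.94 and 6.72. It was highest in HoxA9AA/Meis1 replicate 3, but HoxA9wt/Meis1 replicate 1 lay below HoxA9AA/Meis1 replicate 1. Prss34 and Hdc were named after their values were seen. Over 12 measured mast cell and basophil genes the list mean was 6.03 to 6.77 in HoxA9AA/Meis1 and 6.01 to 6.61 in HoxA9wt/Meis1 marrow, and the mature mast cell protease genes Tpsb2, Tpsab1, Cma1 and Mcpt4 were among 7 that stayed at background. Of the partner chains of the receptor, Fcer1a, which binds IgE, measured 4.21 to 4.68, against 4.40 to 4.96, and was at background on every array. Fcer1g, the signalling chain shared with other Fc receptors, measured 11.98 to 12.34, against 12.15 to 12.31. Of 11 measured genes of the receptor and its signalling, 8 had a higher and 2 a lower mean and 0 passed the test (limma), with Syk at 9.13 to 9.21, against 9.04 to 9.12, and Btk at 9.84 to 10.52, against 9.73 to 10.09.

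Ms4a7, a macrophage gene, and Ms4a1 each stood out in 1 mouse. Ms4a7 measured 5.95, 6.39 and 7.04 in HoxA9AA/Meis1 mice, against 6.34, 6.12 and 6.15 in HoxA9wt/Meis1 mice, a difference of 0.26 ± 0.27 (SE; limma, adjusted p = 0.903). Replicate 3 was its only value above the background percentile, and without that mouse the difference was −0.03. Tmem176a and Tmem176b, related genes of chromosome 6 that dendritic cells and macrophages express, were high in the same mouse, with Tmem176a at 7.52, 8.01 and 10.05, against 7.65, 7.27 and 7.42, and Tmem176b at 9.03, 9.5 and 10.79, against 9.37, 8.70 and 9.03. Ms4a1 measured 5.18, 6.15 and 5.05, against 5.25, 5.21 and 5.21, so that HoxA9AA/Meis1 replicate 2 alone was higher, and all values were below the background percentile. Its difference of 0.24 ± 0.28 (SE; limma, adjusted p = 0.918) became −0.11 without that mouse. Among 14 measured B cell genes the mean was higher for 13 and the median difference was 0.17. Of the 14, 8 stayed at background, among them Cd79a, Cd22 and Rag2, and replicate 2 was not the highest of the list scores (0.24, 0.12 and 0.22, against −0.03 to 0.04).

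**Figure D3:**
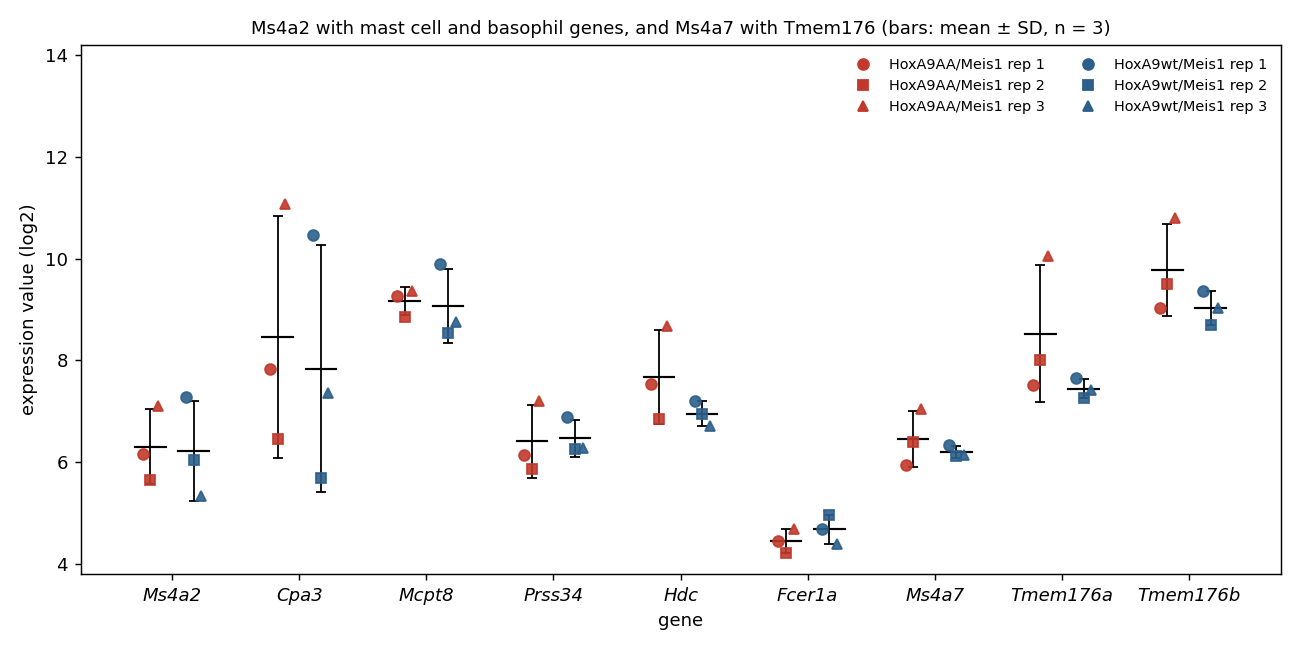
Expression values (log2, vertical axis) of Ms4a2, 4 mast cell and basophil genes, the IgE receptor gene Fcer1a, Ms4a7 and its relatives Tmem176a and Tmem176b (horizontal axis) per array. A symbol is 1 mouse, and black bars give the mean ± SD of a group (n = 3). Ms4a2 and Cpa3 are high in HoxA9AA/Meis1 replicate 3 (7.10 and 11.08) and in HoxA9wt/Meis1 replicate 1 (7.28 and 10.47), and Tmem176a is high in HoxA9AA/Meis1 replicate 3, at 10.05.

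Other Ms4a genes of the array show the extent of the pattern. Ms4a4a, whose human counterpart is a macrophage protein that associates with the fungal receptor dectin-1, measured 6.5, 10.53 and 6.0 in HoxA9AA/Meis1 mice, against 10.51, 10.23 and 10.65 in HoxA9wt/Meis1 mice. Replicates 1 and 3 were below the background percentile of their arrays, so that how far they lay below the HoxA9wt/Meis1 mice is a lower limit, and replicate 2 lay among the HoxA9wt/Meis1 mice. The groups overlapped, with a difference of −2.79 ± 1.13 (SE; limma, adjusted p = 0.731). Ms4a20 measured 5.07, 6.23 and 4.70, against 6.81, 7.06 and 6.31, a difference of −1.39 ± 0.41 (SE; limma, adjusted p = 0.731), with replicate 2 just below the lowest HoxA9wt/Meis1 mouse. Only HoxA9wt/Meis1 replicates 1 and 2 were above the background percentile for this gene, and the nearest values of the groups, 6.23 and 6.31, both lay within background. The other 7 (Ms4a4d, Ms4a5, Ms4a10, Ms4a12, Ms4a13, Ms4a15 and Ms4a19) differed by −0.21 to 0.13, and Ms4a15 alone of them was above the background percentile on all arrays.

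In gene order on chromosome 19, the low genes lay in more than one place, with genes at background between them. The RefSeq table held 21 Ms4a genes in the cluster, of which 19 were measured with a single symbol. Ms4a8a and Ms4a20 lay next to each other and apart from the run of Ms4a4a, Ms4a4c, Ms4a4b, Ms4a6c and Ms4a6b, which were all low in HoxA9AA/Meis1 replicate 1, Ms4a4b within background. Between them lay Ms4a19, Ms4a13, Ms4a12, Ms4a1, Ms4a5 and Ms4a7, which differed by no more than 0.25 from the HoxA9wt/Meis1 mean in that mouse and which were at background in every HoxA9wt/Meis1 mouse, so that a drop could hardly be read from them. Ms4a4d, also at background on every array, lay between that run and Ms4a6d, which was −3.53. Beyond Ms4a6d, the next genes Ms4a2 and Ms4a3 were −0.05 and 0.36. Outside the cluster, Ccdc86 and Ptgdr2 on one side were −0.35 and −0.02 in replicate 1, and 0.21 and −0.13 in replicate 3. Of the oocyte genes on the other side, Oosp1 was −0.10 in replicate 1 and 1.32 in replicate 3.

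**Figure D4:**
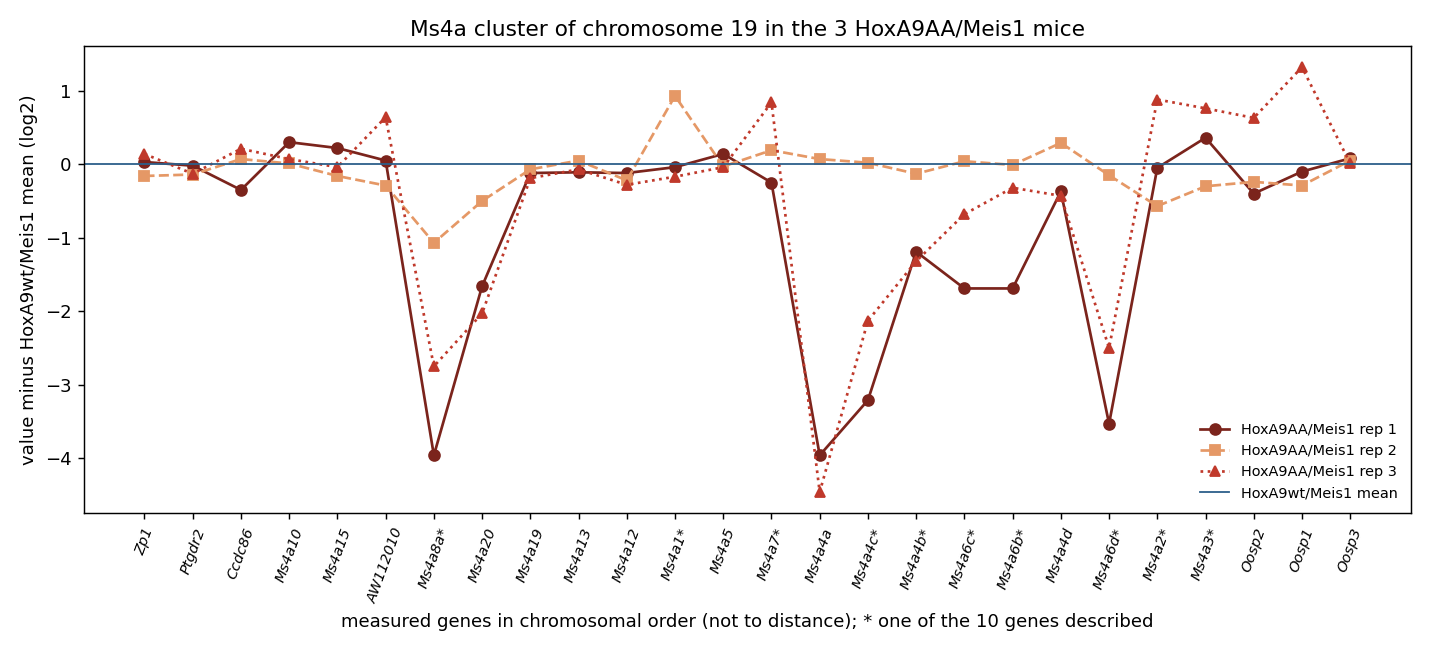
Value minus the HoxA9wt/Meis1 mean (log2, vertical axis) in each of the 3 HoxA9AA/Meis1 mice for measured genes of the Ms4a cluster and 3 neighbours on each side, in chromosomal order and not to distance (horizontal axis). Lines join the values of 1 mouse and asterisks mark the 10 genes. Replicates 1 and 3 dip at Ms4a8a (−3.96 and −2.75), at Ms4a4a (−3.96 and −4.46) and at Ms4a6d (−3.53 and −2.50), and replicate 2 is farthest from 0 at Ms4a8a (−1.07) and Ms4a1 (0.93).

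Genes whose proteins bind MS4A family members, or are linked to them, did not share one direction in RNA. Of 7 such genes, 4 had higher and 3 lower means and 0 passed the test (limma). Clec7a, the dectin-1 gene, measured 8.39, 9.38 and 6.80 in HoxA9AA/Meis1 mice, against 8.51, 9.27 and 9.66 in HoxA9wt/Meis1 mice, so that replicate 3 was lowest and replicate 1 lay just below the HoxA9wt/Meis1 values. Trem2, a lipid receptor gene of macrophages linked to MS4A proteins in humans, measured 7.49 to 7.58, against 7.74 to 7.87, a difference of −0.24 ± 0.08 (SE; limma, adjusted p = 0.731). Cdk2, a kinase gene of the cell cycle, measured 8.46 to 9.08, against 8.20 to 8.35, a difference of 0.59 ± 0.17 (SE; limma, adjusted p = 0.731), and Cdkn3, the phosphatase gene whose product binds human MS4A3, measured 8.79 to 9.18, against 8.64 to 9.11. Tnfrsf18, the GITR gene whose product associates with mouse Ms4a4b in T cells, measured 6.97 to 8.09, against 6.83 to 7.06, a difference of 0.68 ± 0.28 (SE; limma, adjusted p = 0.731). Vsig4, a partner of Ms4a6d in mouse macrophages, was at background on every array, at 5.14 to 6.27, against 5.27 to 5.72.

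For the 3 members that spanned 2 or more over the 6 arrays, the genes with the most similar profile were found by the root mean square difference between centred values over the 6 arrays. Nearest to Ms4a8a were the purine receptor relative P2ry10b (0.23), Mertk, a receptor for apoptotic cells (0.26), and Il13ra1, an interleukin receptor chain (0.48). Nearest to Ms4a4c were the RNA sensor gene Tlr8 (0.24), Crybg1 (0.34) and Trps1 (0.36), and nearest to Ms4a6d were Lipo3 (0.47), Tlr8 (0.54) and Crybg1 (0.66). Tlr8 measured 5.77, 8.41 and 6.63, against 8.73, 8.71 and 8.23. Within the family, Ms4a4c and Ms4a6d were each other's nearest, at 0.39, and Ms4a4c was also nearest to Ms4a8a, at 0.56.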

How the data were processed

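Total RNA of 6 mice was hybridised to 6 arrays. The authors made the deposited log2 values with oligo and RMA (background correction, quantile normalization, summary per probe set), per the submitters' processing notes, which give no versions; the log2 scale was inferred from the range of the values and from RMA. No 2 arrays shared more than 2.83% of values. Arrays hold no counts, and the number of mice limits the precision.

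Symbols came from the platform annotation. Of 35556 probe sets, 21789 had 1 symbol, 1621 had several and 12146 were unnamed here. The brightest probe set per gene gave 19938 genes. For all 10 Ms4a genes the symbol matched that of the same Entrez gene in RefSeq (GRCm38.p6), which also supplied promoters and gene order. The annotation names no build of its own.

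The test was limma 3.58.1 (R 4.3.3; lmFit and eBayes, two-sided) on all genes, with p-values adjusted by Benjamini-Hochberg and called under 0.05; the code was tested on simulated data. Members, marker lists and the rule for naming genes were chosen with earlier results of these data known. The rule took the members, other Ms4a and Tmem176 genes, binding partners, Fc epsilon receptor genes, cluster neighbours, nearest profiles and, per marker list, the 3 genes with the highest HoxA9wt mean. Klrb1c, Ncr1, Cd3d, Cd5, Irf8, Vcam1, C1qc, Prss34, Hdc, Tpsb2, Tpsab1, Cma1, Mcpt4, Cd79a, Cd22 and Rag2 were named outside it, after their values were seen. The same holds for Cebpe and Gfi1. Promoters were aligned with Biopython 1.88 (global, free end gaps), and figures drawn with matplotlib 3.10.9. Alternatives were a replicate block, leaving out each array, a filter on low values, all probe sets, the mean of probe sets, quantile normalization, median centring, trended and robust eBayes, and array weights. Same-numbered arrays did not deviate together (r = −0.208, −0.103 and −0.013 across genes), so numbers were not taken as pairs.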

Additional observations from a re-analysis of the deposited data

How the results depend on the processing

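Of 136 differences of single members under other settings, 131 kept their direction and their side of the threshold, 1 passed it and 4 changed sign. The 4 were Ms4a1 without HoxA9AA/Meis1 replicate 2 (−0.11), Ms4a2 without HoxA9AA/Meis1 replicate 3 (−0.31) and without HoxA9wt/Meis1 replicate 3 (−0.35), and Ms4a7 without HoxA9AA/Meis1 replicate 3 (−0.03); the 1 was Ms4a4b without HoxA9AA/Meis1 replicate 2 (−1.26). With an array left out, Ms4a1 ranged from −0.11 to 0.44, Ms4a2 from −0.35 to 0.62 and Ms4a7 from −0.03 to 0.51. The call of Ms4a4b is the member called there; with the other arrays left out in turn no member was called, so that the count of members ranged from 0 to 1 and that of all genes from 0 to 48 (48 without HoxA9AA/Meis1 replicate 2, and 1, not a member, without HoxA9wt/Meis1 replicate 3). Members with non-overlapping groups ranged from 2 to 6 when an array was left out, with 6 without HoxA9AA/Meis1 replicate 2 (28.3% of all genes) and 5 without HoxA9wt/Meis1 replicate 3 (16.9%), and were 1 of 6 when genes under the median of all probe sets were dropped, because Ms4a4b is then not tested. The replicate block gave 0 called genes and 0 called members, and changed no call. Ms4a8a ranged from −3.35 to −1.91 with an array left out and from −2.61 to −2.21 under the other settings, Ms4a6d from −3.02 to −1.32 and from −2.06 to −1.31, and Ms4a4c from −2.67 to −1.05 and from −1.77 to −1.16. Signals near the olfactory receptor percentile limit what can be read from Ms4a1, Ms4a2, Ms4a4b and Ms4a7. Groups of 3 are too small for a search for outlying mice.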
